A study of Homo sapiens with 6 samples.

Results

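RNA of 10 genes for chromatin assembly and for the upkeep of DNA methylation was followed in HCT116-UGI cells: CHAF1A, CHAF1B, ASF1A, ASF1B, NASP, SLBP, UHRF1, DNMT1, DNMT3B and HELLS. They were taken by gene name from a table of 42822 entries, and each was read in the 6 full libraries. The genes were picked with these same values in view, so levels and differences are given as a description, with no test. HCT116 is an established human colon adenocarcinoma line deficient in mismatch repair, and the cells of all groups also expressed UGI, a protein that blocks UNG, the main uracil-DNA glycosylase. Cells were treated for 48 h with 20 µM 5FdUR (5-fluoro-2′-deoxyuridine, a nucleoside analogue whose phosphorylated form binds thymidylate synthase covalently), were treated for 48 h with 100 nM RTX (raltitrexed, an antifolate inhibitor of the same enzyme), or were not treated (NT). From each lysate, TS-RIP is RNA recovered with an anti-TS antibody (TS, thymidylate synthase), and RIPctr is RNA left on the antibody-free beads that had cleared the same lysate. There was 1 library per treatment and fraction, with no replicates, so the differences below have no replicate check.

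When DNA is copied, new nucleosomes and new methyl groups must both be put in place behind the fork. Histone chaperones carry newly made H3-H4: NASP holds the soluble reserve, ASF1A and ASF1B pass it on, and CAF-1, of which CHAF1A and CHAF1B are the large and the middle subunit, deposits it on new DNA at sites marked by PCNA. SLBP binds the stem-loop that ends replication-dependent histone mRNAs and is needed for their processing and translation. UHRF1 recognises hemimethylated CpG sites and brings in DNMT1, the maintenance methyltransferase, while DNMT3B is a de novo methyltransferase and HELLS a SNF2-family remodeller that methylation of repeats depends on.

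In GENCODE 44 on GRCh38, CHAF1A lies at chr19:4402640-4445018 (plus strand), UHRF1 at chr19:4903080-4962154 (plus), DNMT1 at chr19:10133342-10231286 (minus) and ASF1B at chr19:14119512-14136613 (minus). CHAF1B is at chr21:36385392-36419015 (plus), DNMT3B at chr20:32762385-32809359 (plus), HELLS at chr10:94545329-94613905 (plus), ASF1A at chr6:118894152-118909171 (plus), NASP at chr1:45583846-45618904 (plus) and SLBP at chr4:1692731-1712344 (minus). All are protein coding. CHAF1B shares 89 exonic bases with MORC3 on the same strand, and ASF1A shares 205 with MCM9 on the opposite strand, which strand-aware counting keeps apart.

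All 10 genes were matched to a RefSeq start. Printed here are the 250 bases before the RefSeq start (GRCh38.p14) of CHAF1A, DNMT3B and CHAF1B, the windows among the 10 that held no GENCODE 44 exon, because the first of these genes was lower with 5FdUR than in NT, DNMT3B was lower to a smaller extent, and CHAF1B was higher. They lie at chr19:4402390-4402639, chr20:32779602-32779851 and chr21:36385142-36385391, all on the plus strand. The DNMT3B window lies inside the gene, which GENCODE 44 starts at 32762385, so it precedes an internal start and not the 5' end of the gene. The windows of UHRF1, DNMT1 and HELLS, not printed, also lie inside their GENCODE 44 genes. Capitals mark CCAAT, read on both strands. At one place in CHAF1A a match on each strand overlaps.
CHAF1A: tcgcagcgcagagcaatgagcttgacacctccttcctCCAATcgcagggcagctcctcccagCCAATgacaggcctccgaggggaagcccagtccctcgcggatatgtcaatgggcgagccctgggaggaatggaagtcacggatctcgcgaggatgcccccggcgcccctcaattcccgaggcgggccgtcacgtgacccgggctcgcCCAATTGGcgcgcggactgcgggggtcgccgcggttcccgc
DNMT3B: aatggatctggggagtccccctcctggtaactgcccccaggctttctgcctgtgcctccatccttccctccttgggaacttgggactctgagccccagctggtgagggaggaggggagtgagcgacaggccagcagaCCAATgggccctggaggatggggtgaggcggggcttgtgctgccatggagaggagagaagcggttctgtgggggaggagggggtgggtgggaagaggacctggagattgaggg
CHAF1B: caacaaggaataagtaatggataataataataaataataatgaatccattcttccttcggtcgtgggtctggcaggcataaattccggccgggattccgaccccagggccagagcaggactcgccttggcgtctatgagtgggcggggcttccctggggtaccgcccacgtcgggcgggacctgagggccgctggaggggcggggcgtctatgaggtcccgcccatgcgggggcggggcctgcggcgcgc
CCAAT occurred 4 times in the CHAF1A window, once in that of DNMT3B and not in that of CHAF1B. Among the 10 windows 6 held it, against 32.0% of 35116 RefSeq windows of the same length. An E2F word (TTTCCCGC, TTTGGCGC, TTTCGCGC or TTTGCCGC on either strand) was in 2 of the 10 windows, those of HELLS and of UHRF1 (the most upstream of its listed starts), against 2.79% of all windows. The word TTTGAA, the core of the cell-cycle homology region, was in 1, that of ASF1B, against 13.3%. These are letter matches only.

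Values are scaled fragment counts with no division by gene length. The libraries held between 7051104 fragments (5FdUR RIPctr) and 11657293 (NT TS-RIP). Between 6.04% and 7.11% of a library came from its top 10 genes. Colon epithelial markers summed to between 4461942 and 7118633 in TS-RIP and between 4892612 and 6040446 in RIPctr, with 6 of 10 above a mean of 500 (CDH1, CDX2, EPCAM, KRT18, KRT20 and KRT8). Of 13 markers of other cell types, COL1A1 and VWF passed that mean and CD3E was at 0. Their sums were 11362 to 25671 in TS-RIP and 22076 to 28381 in RIPctr, lowest in 5FdUR TS-RIP and highest in NT RIPctr. Their part in the results was not tested.

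The question asked first was how each drug moved these RNAs relative to untreated cells. A gene counted by size as higher or lower if log2(value + 100) differed by at least 1 in the same direction in TS-RIP and in RIPctr, with a mean above 1000 over the 4 libraries. All 10 genes passed that mean in each comparison. With 5FdUR against NT, 2 of the 10, CHAF1A and UHRF1, were lower and 0 higher, where 7.75% of 12502 genes were lower and 10.0% higher. With RTX against NT, 0 were lower and 0 higher, where 3.61% of 12425 genes were lower and 5.33% higher. Both drugs were set against the same NT libraries. In these bulk lysates, fewer cells in a given cycle phase and less RNA per cell cannot be told apart. Neither fraction is input RNA, so values are of recovered RNA. A change in recovery with the antibody or on the beads cannot be told apart from these either. Each interval below is an exact binomial (Clopper-Pearson) 95% interval on the fragments of the libraries compared, and covers counting error only.

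**Figure D1:**
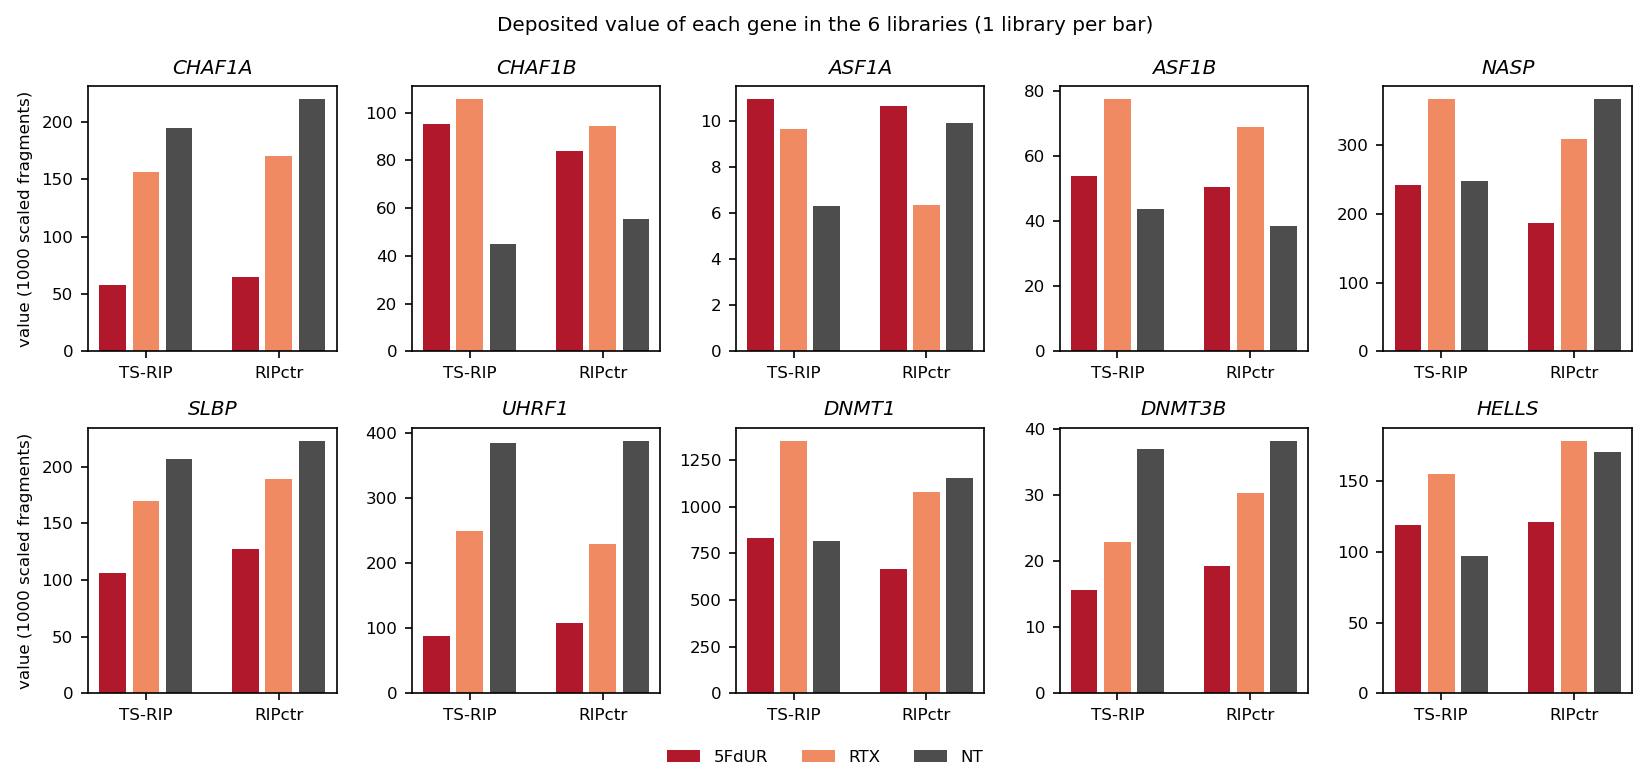
Value of each of the 10 genes in units of 1000 scaled fragments (y axis, from 0, own scale per gene) in the 6 libraries, 1 library per bar, grouped by fraction and coloured by treatment. CHAF1A, UHRF1, DNMT3B and SLBP step up in the order 5FdUR, RTX, NT in both fractions, while CHAF1B and ASF1B are lowest in NT.

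The CAF-1 subunits moved in opposite directions with 5FdUR. CHAF1A stood at 57406 in 5FdUR, 156589 in RTX and 194485 in NT TS-RIP, and at 65137 in 5FdUR, 170491 in RTX and 220096 in NT RIPctr. Both 5FdUR libraries were thus below all others. Its log2 difference of 5FdUR over NT was -1.76 in TS-RIP (interval -1.90 to -1.63) and -1.76 in RIPctr (-1.90 to -1.61), a 3.38-fold lower value in each. For RTX over NT it was -0.31 in TS-RIP and -0.37 in RIPctr. CHAF1B stood at 95178 in 5FdUR, 105806 in RTX and 44881 in NT TS-RIP, and at 83942 in 5FdUR, 94330 in RTX and 55622 in NT RIPctr. All 4 drug libraries were above both NT libraries. The 5FdUR difference from NT was 1.08 in TS-RIP (0.93 to 1.24) and 0.59 in RIPctr (0.42 to 0.77), and that of RTX was 1.24 (1.09 to 1.39) and 0.76 (0.60 to 0.93), so that neither reached 2-fold in both fractions.

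Set per kilobase of exon, CHAF1A RNA was 0.80 times CHAF1B RNA in 5FdUR, 1.96 times in RTX and 5.75 times in NT TS-RIP. The RIPctr libraries gave 1.03 in 5FdUR, 2.40 in RTX and 5.25 in NT. By these lengths the 2 subunits were at close levels with 5FdUR and several-fold apart in NT, with RTX between. The lengths are from GENCODE 44, while the authors assigned fragments to GENCODE 34 transcripts. The level of one subunit against the other depends on those lengths, but the change of their ratio between treatments does not.

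**Figure D2:**
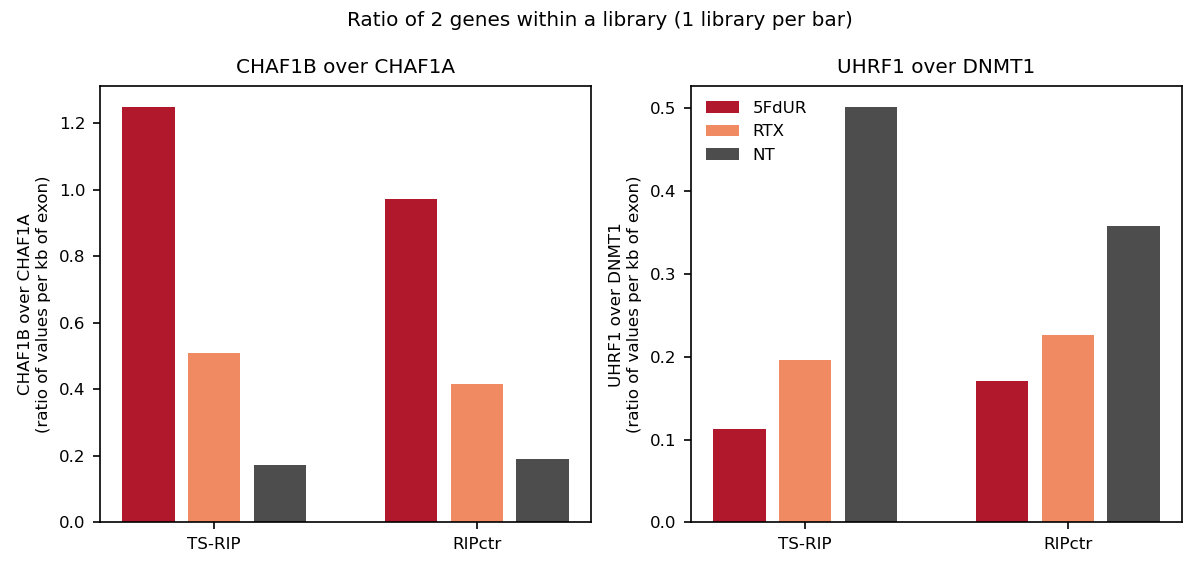
Ratio of the values per kilobase of exon of CHAF1B over CHAF1A (left) and of UHRF1 over DNMT1 (right) in each library, 1 library per bar, y axes from 0. CHAF1B over CHAF1A is highest with 5FdUR, in RIPctr 0.97, 0.42 and 0.19 in 5FdUR, RTX and NT, and UHRF1 over DNMT1 is highest in NT (0.50 in TS-RIP, 0.36 in RIPctr).

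Of the other histone chaperones, ASF1B was higher with both drugs, most with RTX. It stood at 54017 in 5FdUR, 77765 in RTX and 43776 in NT TS-RIP, and at 50556 in 5FdUR, 68943 in RTX and 38525 in NT RIPctr, so again the drug libraries all lay above NT. The RTX difference from NT was 0.83 in TS-RIP (0.67 to 0.99) and 0.84 in RIPctr (0.64 to 1.04), that of 5FdUR 0.30 (0.13 to 0.48) and 0.39 (0.18 to 0.61). ASF1A, its paralog, was the least covered gene, with 51 to 110 fragments per library. Its values were 10963 in 5FdUR, 9636 in RTX and 6290 in NT TS-RIP, and 10629 in 5FdUR, 6347 in RTX and 9916 in NT RIPctr. The RTX difference had opposite signs in the fractions, 0.61 (0.17 to 1.07) in TS-RIP and -0.64 (-1.17 to -0.13) in RIPctr. Per kilobase, ASF1B was 4.89 to 13.7 times ASF1A over the 6 libraries.

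NASP was near its NT level in one fraction only. It stood at 242082 in 5FdUR, 366949 in RTX and 247527 in NT TS-RIP, and at 187099 in 5FdUR, 309622 in RTX and 368043 in NT RIPctr. With 5FdUR the difference from NT was -0.03 in TS-RIP (-0.11 to 0.05) and -0.98 in RIPctr (-1.07 to -0.88). That of RTX was 0.57 (0.50 to 0.64) in TS-RIP and -0.25 (-0.33 to -0.17) in RIPctr.

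SLBP was lower with 5FdUR in both fractions. It stood at 106141 in 5FdUR, 169598 in RTX and 206216 in NT TS-RIP, and at 127549 in 5FdUR, 189407 in RTX and 222832 in NT RIPctr. Against NT, 5FdUR gave a difference of -0.96 in TS-RIP (-1.06 to -0.85) and -0.80 in RIPctr (-0.92 to -0.69), just short of 2-fold, and that of RTX was -0.28 (-0.37 to -0.19) and -0.23 (-0.33 to -0.14).

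UHRF1 had the largest 5FdUR difference of the 10 genes in each fraction. It stood at 88899 in 5FdUR, 249387 in RTX and 384636 in NT TS-RIP, and at 107381 in 5FdUR, 229603 in RTX and 388104 in NT RIPctr. The order 5FdUR, RTX, NT was thus the same in both fractions, which came from 1 lysate per treatment and are not replicates. The 5FdUR difference from NT was -2.11 in TS-RIP (-2.22 to -2.01), a 4.32-fold lower value, and -1.85 in RIPctr (-1.97 to -1.74), 3.61-fold lower. The RTX difference was -0.62 (-0.70 to -0.56) in TS-RIP and -0.76 (-0.84 to -0.68) in RIPctr.

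DNMT1, the enzyme that UHRF1 recruits, was lower with 5FdUR than in NT in RIPctr and near its NT level in TS-RIP. It stood at 833582 in 5FdUR, 1352930 in RTX and 813218 in NT TS-RIP, and at 664999 in 5FdUR, 1076710 in RTX and 1152000 in NT RIPctr. With 5FdUR the difference from NT was 0.04 in TS-RIP (-0.01 to 0.08) and -0.79 in RIPctr (-0.84 to -0.74), and the RTX difference was 0.73 in TS-RIP (0.70 to 0.77) and -0.10 in RIPctr (-0.14 to -0.06). With all libraries scaled to the same total, the 2 small values changed sign, to -0.003 for 5FdUR in TS-RIP and 0.006 for RTX in RIPctr. Per kilobase, DNMT1 was 8.84 times UHRF1 in 5FdUR, 5.12 times in RTX and 1.99 times in NT TS-RIP, and 5.84, 4.42 and 2.80 times in the 5FdUR, RTX and NT RIPctr libraries.

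DNMT3B, the de novo enzyme, was lower with both drugs. It stood at 15547 in 5FdUR, 22934 in RTX and 36891 in NT TS-RIP, and at 19214 in 5FdUR, 30240 in RTX and 38184 in NT RIPctr. Against NT, 5FdUR gave a difference of -1.24 in TS-RIP (-1.52 to -0.98) and -0.99 in RIPctr (-1.29 to -0.70), and it rested on 141 to 434 fragments per library. The RTX difference was -0.68 (-0.92 to -0.45) in TS-RIP and -0.34 (-0.58 to -0.09) in RIPctr.

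HELLS, the remodeller, was lowest in NT TS-RIP. It stood at 119396 in 5FdUR, 155240 in RTX and 97073 in NT TS-RIP, and at 121281 in 5FdUR, 178704 in RTX and 170971 in NT RIPctr. The 5FdUR difference from NT was 0.30 in TS-RIP (0.18 to 0.42) and -0.50 in RIPctr (-0.62 to -0.37), and the RTX difference was 0.68 (0.57 to 0.79) in TS-RIP and 0.06 (-0.04 to 0.17) in RIPctr.

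**Figure D3:**
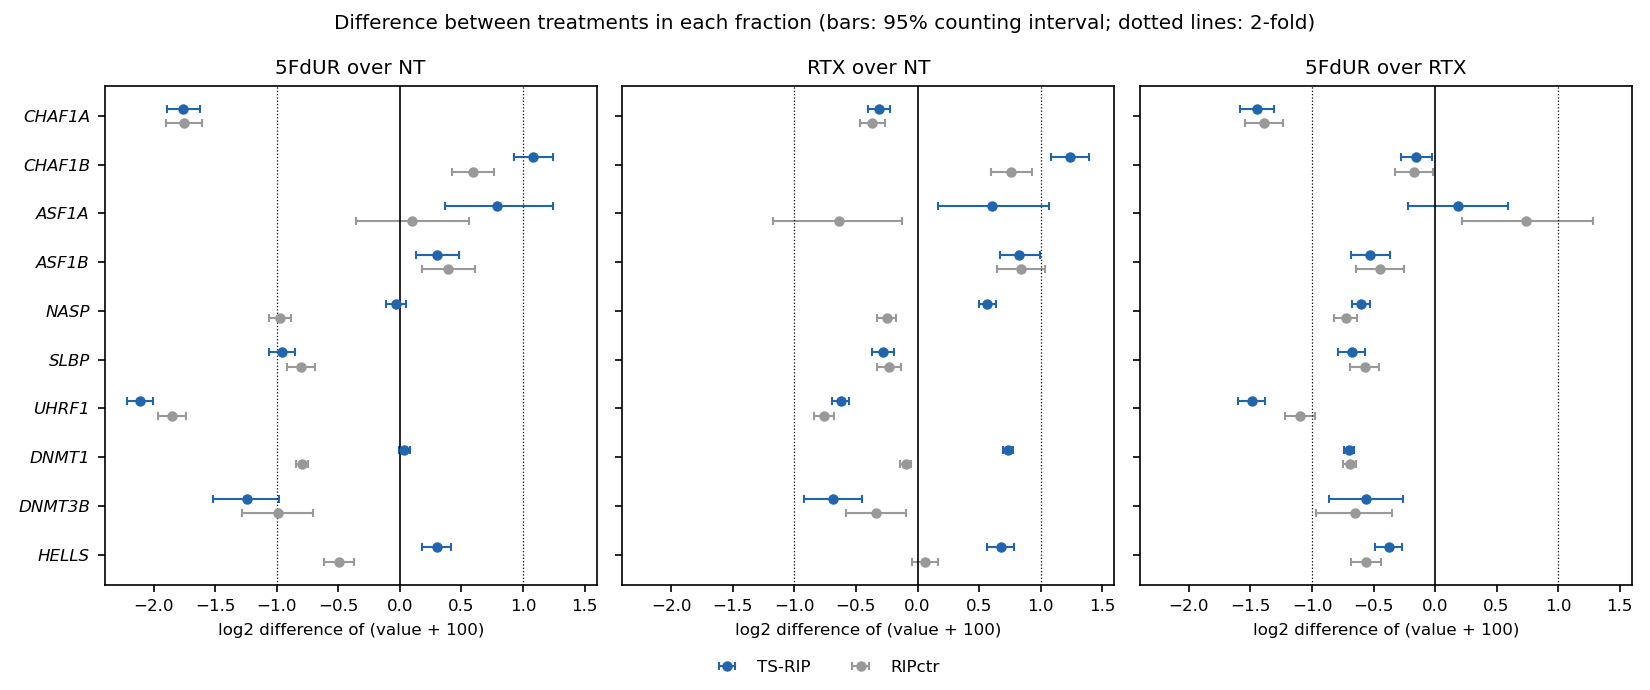
Log2 difference of (value + 100) between treatments for the 10 genes (x axis), in TS-RIP (blue) and RIPctr (grey), with 95% counting intervals as bars and 2-fold as dotted lines. CHAF1A and UHRF1 lie beyond 2-fold in both fractions in the 5FdUR panels, CHAF1B and ASF1B lie above 0 with both drugs, and in 5FdUR over RTX 9 of the 10 genes lie below 0.

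At a 1.5-fold threshold in both fractions, CHAF1A, DNMT3B, SLBP and UHRF1 were lower with 5FdUR than in NT, 4 of 10 against 18.3% of all genes, and CHAF1B was higher, 1 of 10 against 20.3%. With RTX, UHRF1 was lower, 1 of 10 against 13.7%, and ASF1B and CHAF1B were higher, 2 of 10 against 14.2%. Over the 10 genes the median difference from NT was 0.00 in TS-RIP and -0.80 in RIPctr for 5FdUR, and 0.59 and -0.24 for RTX. Over all genes these medians were 0.02 and 0.02 for 5FdUR, and -0.01 and -0.01 for RTX. Scaling to equal totals shifted the median of all genes by 0.14 for 5FdUR over NT in RIPctr, by -0.10 for RTX over NT in TS-RIP and by 0.10 in RIPctr, and by less than 0.10 in the other drug comparisons.

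The direct comparison of the drugs, at doses that differ between the compounds (20 µM and 100 nM), did not involve the NT libraries. The values of 5FdUR were below those of RTX for 9 of the 10 genes in both fractions, where 37.0% of 12487 genes were lower and 37.9% higher in both at any size. ASF1A was the exception, with 0.18 (-0.22 to 0.59) in TS-RIP and 0.73 (0.22 to 1.28) in RIPctr. CHAF1A and UHRF1 were lower by at least 2-fold, 2 of 10 genes where 0.352% of all genes were lower and 1.04% higher. For CHAF1A the difference of 5FdUR over RTX was -1.45 in TS-RIP (-1.59 to -1.31) and -1.39 in RIPctr (-1.54 to -1.24), for UHRF1 -1.49 (-1.60 to -1.38) and -1.10 (-1.22 to -0.98). At 1.5-fold DNMT1 and NASP joined them, 4 of 10 against 2.74%, and 0 were higher, against 4.13%. DNMT1 gave -0.70 in TS-RIP (-0.74 to -0.66) and -0.70 in RIPctr (-0.75 to -0.64), nearly the same value in each fraction. CHAF1B was the closest to 0, at -0.15 (-0.28 to -0.03) in TS-RIP and -0.17 (-0.32 to -0.01) in RIPctr. The medians over the 10 genes were -0.58 in TS-RIP and -0.61 in RIPctr, and over all genes 0.00 and 0.01. All 7 related lists described below also had medians below 0 in both fractions. In TS-RIP they ran from -0.04 for G2/M genes to -0.54 for replication-dependent histones. In RIPctr they ran from -0.04 for other DNA methylation genes to -0.69 for replication-dependent histones. The DNA replication machinery had -0.42 and -0.42, so lower values with 5FdUR than with RTX were not particular to the 10 genes. At 2-fold, 0 of 38 replication genes and 4 of 39 histone genes were lower. The genes were picked with these libraries in view, so the contrast with the other genes is a description.

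The TS-RIP ratio, TS-RIP over RIPctr within a treatment, addressed how much of each RNA came down with TS. RIPctr is RNA that stuck to beads without antibody, not input RNA, so a ratio compares that RNA with the immunoprecipitate. A ratio was counted past 1.5-fold with a mean of both libraries above 500. With 5FdUR, 0 of the 10 genes were higher and 0 lower, where 3.03% and 15.1% of 13776 genes were. With RTX, 1 was higher (ASF1A) and 0 lower, where 4.27% and 14.7% of 13540 genes were. In NT, 0 were higher and 2 lower (HELLS and ASF1A), where 4.37% and 9.80% of 13301 genes were. At a lower threshold of 0.32 on the log2 scale, DNMT1 and NASP were higher with 5FdUR (2 of 10, against 13.1% of all genes, and 0 lower, against 25.5%). With RTX, ASF1A and DNMT1 were then higher (2 of 10, against 16.9%) and DNMT3B lower (1 of 10, against 25.0%), and in NT 4 were lower (ASF1A, DNMT1, HELLS and NASP, against 20.7%) and 0 higher (against 17.9%).

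Ratios in NT were below 0 for 9 of the 10 genes and above 0 for 1, where 47.7% of all genes were below and 52.3% above, though for UHRF1 and DNMT3B the ratio in NT lay above 0 after scaling to equal totals. This was not particular to the 10 genes, whose median in NT was -0.24. Of the related lists described below, G2/M genes had a median of -0.31, the DNA replication machinery -0.23 and other histone chaperones -0.21. The remaining lists had medians from -0.18 to 0.01. HELLS was lowest of the 10 genes in NT, with a log2 ratio of -0.02 in 5FdUR (-0.15 to 0.10), -0.20 in RTX (-0.31 to -0.10) and -0.82 in NT (-0.93 to -0.70). DNMT1 stood at 0.33 in 5FdUR (0.27 to 0.38), 0.33 in RTX (0.29 to 0.37) and -0.50 in NT (-0.54 to -0.46). NASP stood at 0.37 in 5FdUR (0.28 to 0.47), 0.25 in RTX (0.17 to 0.32) and -0.57 in NT (-0.65 to -0.50). For both genes the drug ratios were thus above 0 and the NT ratio below it, each clear of 0 by counting error. CHAF1B showed the same pattern at a smaller size, 0.18 in 5FdUR (0.03 to 0.33), 0.17 in RTX (0.03 to 0.30) and -0.31 in NT (-0.49 to -0.13). After scaling to equal totals its drug ratios were 0.10 in 5FdUR and 0.05 in RTX. ASF1A had 0.04 in 5FdUR (-0.39 to 0.48), 0.59 in RTX (0.10 to 1.12) and -0.65 in NT (-1.12 to -0.19), and its value in 5FdUR lay below 0 after scaling to equal totals.

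CHAF1A, the gene with one of the largest drug differences in level, had nearly equal ratios, -0.18 in 5FdUR (-0.36 to -0.00), -0.12 in RTX (-0.23 to -0.02) and -0.18 in NT (-0.27 to -0.09). SLBP was likewise below 0 throughout, at -0.26 in 5FdUR, -0.16 in RTX and -0.11 in NT. DNMT3B had -0.30 in 5FdUR (-0.64 to 0.03), -0.40 in RTX (-0.66 to -0.14) and -0.05 in NT (-0.26 to 0.16). Its intervals in 5FdUR and NT included 0. UHRF1 had -0.27 in 5FdUR (-0.41 to -0.13), 0.12 in RTX (0.03 to 0.21) and -0.01 in NT (-0.08 to 0.05). ASF1B had 0.10 in 5FdUR (-0.10 to 0.29), 0.17 in RTX (0.02 to 0.33) and 0.18 in NT (-0.02 to 0.39). These were above 0 in all 3, but the intervals in 5FdUR and NT included 0.

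**Figure D4:**
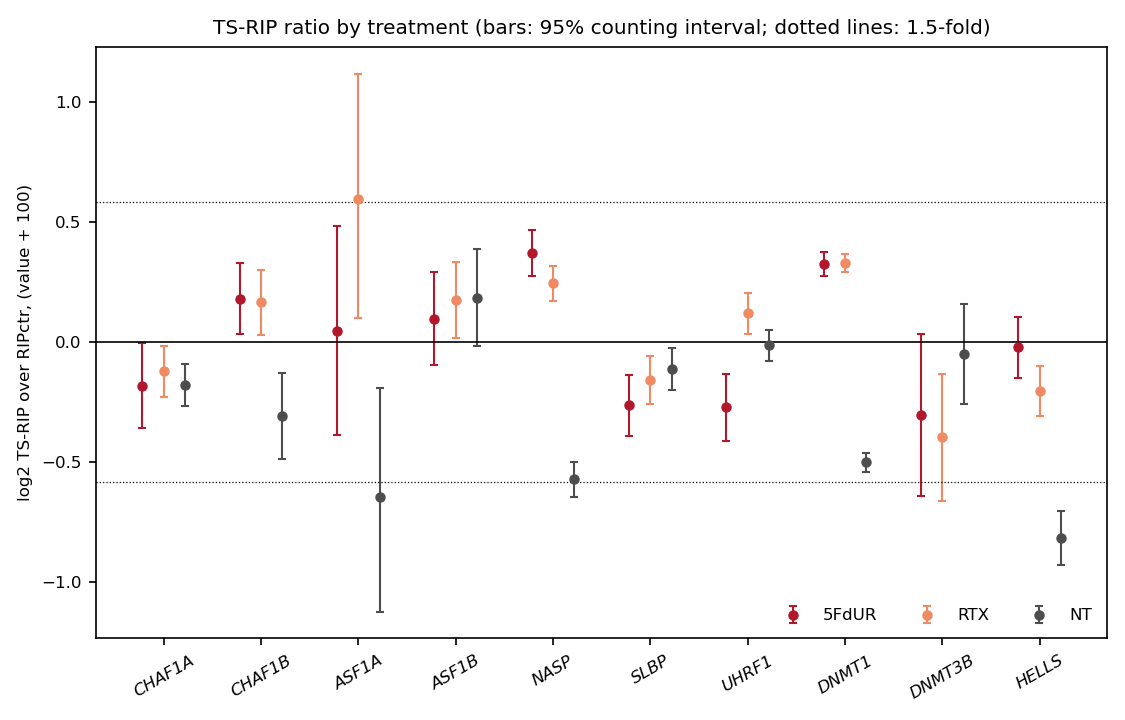
Log2 ratio of TS-RIP over RIPctr (y axis, on value + 100) for the 10 genes in 5FdUR, RTX and NT, with 95% counting intervals as bars and 1.5-fold as dotted lines. For DNMT1, NASP and CHAF1B both drug ratios lie above 0 and the NT ratio below 0, while CHAF1A and SLBP lie below 0 in all 3 treatments.

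The change of the ratio relative to NT was positive for 5 of the 10 genes with 5FdUR and for 7 with RTX, where 46.5% and 47.0% of 13479 genes were positive. Its median over the 10 genes was 0.24 with 5FdUR and 0.30 with RTX, and over all genes -0.04 and -0.03. A rise over NT was not particular to the 10 genes. The DNA replication machinery had a median ratio of 0.18 in 5FdUR, 0.10 in RTX and -0.23 in NT, and G2/M genes 0.10, 0.06 and -0.31. Replication-dependent histones went the other way, at -0.42, -0.59 and -0.18, as did other DNA methylation genes, at -0.01, -0.08 and 0.01. Medians of the remaining related lists were above NT with both drugs.

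Per kilobase of exon, DNMT1 RNA was the most abundant, at a mean of 180029 over the 6 libraries, with a range of 121884 to 247971. SLBP (93004, range 57969 to 121700) and NASP (85561, range 55800 to 109765) followed and overlapped each other, and the ranges of UHRF1 and CHAF1A reached into both. UHRF1 (46907, range 17279 to 75433), CHAF1A (42791, range 17055 to 65388), HELLS (42430, range 29327 to 53989) and ASF1B (28747, range 19920 to 40209) overlapped one with the next, as did ASF1B and CHAF1B (17904, range 10050 to 23691). DNMT3B (5868, range 3358 to 8247) and ASF1A (3683, range 2584 to 4504) were the least abundant and also overlapped. The ranges hold all treatments and both fractions. Neither fraction is input RNA, so the order is that of recovered RNA, and the order within the cells was not measured. The widest, in highest over lowest library, were those of UHRF1 (4.37-fold) and CHAF1A (3.83-fold), and the narrowest those of ASF1A (1.74-fold) and HELLS (1.84-fold).

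Genes outside the set with a profile close to its median were TOP2A (DNA topoisomerase II alpha), PDSS1 (a subunit of the enzyme that makes the coenzyme Q side chain), RTF1 (transcription elongation) and IFT172 (intraflagellar transport). Their root mean square distances were 0.08 to 0.09 log2 units over the 6 libraries. The distance of NASP was 0.09 and that of DNMT1 0.11, so these were nearest within the set, while UHRF1 at 0.69 and CHAF1A at 0.59 were farthest. A single profile therefore did not describe the 10 genes.

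Related genes were read from 7 lists. The replication-dependent histone genes, whose mRNAs SLBP binds, were lower with both drugs: 27 of 43 measured genes were lower with 5FdUR than in NT and 0 higher, where 7.75% of all genes were lower, and 12 of 42 were lower with RTX and 0 higher, where 3.61% of all genes were lower. Their median differences were -1.66 in TS-RIP and -1.43 in RIPctr for 5FdUR, and -1.16 and -0.77 for RTX. By the rule for named genes, H3C1 had 5FdUR differences of -4.25 in TS-RIP and -3.01 in RIPctr and RTX differences of -3.08 and -1.68, on as few as 5 fragments in a library. H3C12 had -3.62 and -3.67 with 5FdUR and -2.05 and -1.26 with RTX, and H2BC14 had -3.23 and -2.36 with 5FdUR and -2.15 and -1.40 with RTX. Histone genes are near-identical copies and uniquely mapped reads can be split unevenly among them, so single genes are uncertain. Among 17 genes for histone mRNA processing, 2 were lower with 5FdUR (CSTF2T and UPF1, named after their values were seen) and 0 with RTX.

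The counts in these lists stand beside 10.0% of all genes higher and 7.75% lower with 5FdUR, and 5.33% higher and 3.61% lower with RTX. Of 21 other DNA methylation genes, GADD45A, a DNA damage response gene linked to demethylation, was higher with both drugs, by 1.74 in TS-RIP and 1.29 in RIPctr with 5FdUR and by 1.32 and 1.08 with RTX. Another 3 genes were lower with 5FdUR and 0 with RTX. Of 38 genes of the DNA replication machinery, 3 were higher and 1 lower with 5FdUR, and 3 higher and 0 lower with RTX, which is close to the share of all genes that were higher. RFC5, a clamp loader subunit, differed by 1.48 and 1.54 with 5FdUR and by 1.67 and 1.67 with RTX in TS-RIP and RIPctr. RPA3, a subunit of the single-strand binding protein RPA, differed by 1.73 and 1.55 with 5FdUR and by 1.11 and 1.47 with RTX. Of 26 G2/M and mitosis genes, 4 were higher with each drug and 0 lower, among them CDK1, the mitotic kinase, at 1.99 and 1.58 with 5FdUR and 1.88 and 1.51 with RTX. The 19 heterochromatin and remodelling genes had 1 lower with 5FdUR (TRIM28) and 1 higher with RTX (CBX3), both named after their values were seen.

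**Figure D5:**
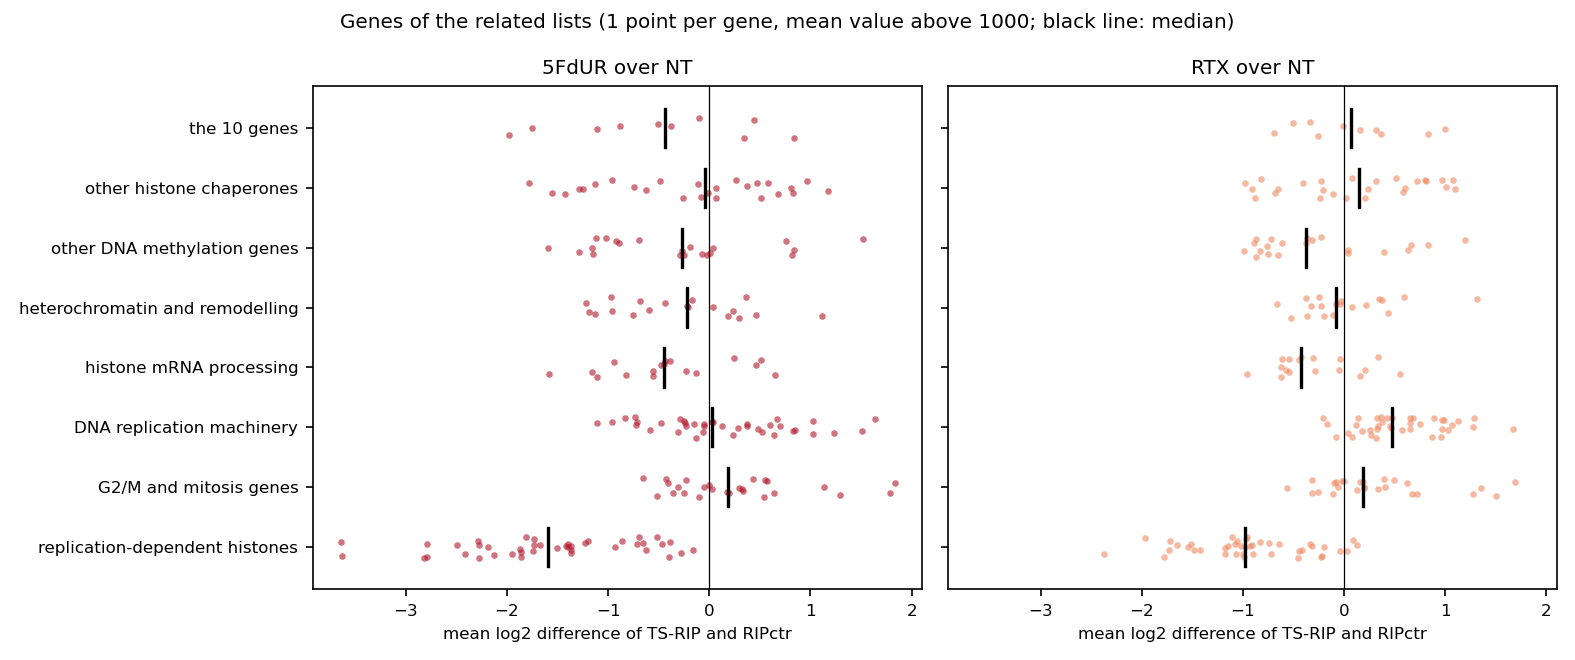
Log2 difference from NT, as the mean of TS-RIP and RIPctr (x axis), for the 10 genes and for genes of 7 related lists with a mean value above 1000, 1 point per gene, with the median as a black line. The replication-dependent histones lie below the other lists with both drugs, and the 10 genes spread on both sides of 0.

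In the related lists the TS-RIP ratio was tested over the 3 treatments with limma (treatment as a block, Benjamini-Hochberg over 13479 genes). Of 192 genes 1 was higher in TS-RIP and 20 were lower, where 2.33% and 6.17% of all genes were. With libraries scaled to the same total the counts were 0 and 4, and with eBayes without trend 0 and 0, with 33 at an unadjusted p under 0.05, so no named call held in that fit. Of the 20 lower genes, 9 were replication-dependent histones, led by H3C1 (mean log2 ratio -1.28), H2AC15 (-1.13) and H2BC14 (-0.89). Their lowest libraries held 5, 9 and 10 fragments. The mean covers unlike treatments: H3C1 had -1.645 in 5FdUR, -1.80 in RTX and -0.40 in NT. By the 1.5-fold count, 15 of 44 histone genes were lower in 5FdUR, 22 in RTX and 1 in NT, with 2, 1 and 0 higher. Of all genes 15.1%, 14.7% and 9.80% were lower. The other lower genes included TET1, a methylcytosine dioxygenase (mean log2 ratio -1.33, SE 0.28, limma adjusted p = 0.00915), MAT2A, which makes the methyl donor S-adenosylmethionine (-0.73, SE 0.12, limma adjusted p = 0.00178), TET2 (-0.60), TONSL, a reader of new H4 (-0.67), and UBN2 of the HIRA complex (-0.58). TET1 had -2.13 in 5FdUR, -1.59 in RTX and -0.29 in NT, on as few as 18 fragments in a library. NPAT, the activator of histone gene transcription, had -0.55 and POLE2, a subunit of DNA polymerase epsilon, -0.64. CENPE and ASPM, both mitotic, had -0.53 and -0.47. The higher gene was POLD2, a subunit of DNA polymerase delta (0.35, SE 0.10, limma adjusted p = 0.0487). Without the NT pair the counts were 29 higher and 44 lower, and without the RTX pair 0 and 4. Without the block they were 0 and 0, with 2 at an unadjusted p under 0.05, while edgeR gave 1 and 17 and DESeq2 1 and 7.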

How the data were processed

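RNA immunoprecipitation libraries of 3 treatments and 2 fractions were read. Per the study's methods, the authors removed rRNA, sequenced stranded libraries in paired-end mode, trimmed reads with fastp, aligned to GRCh38 with HISAT2, kept unique reads and quantified GENCODE 34 transcripts with the Cufflinks suite, with geometric library scaling and no length correction. Tool versions are not given in the sources used here. The authors called the deposited values FPKM. The deposited signal is in whole multiples of 1 step per library (100% of values below 200 fragments, within 0.05 fragments), so values were read as scaled fragment counts, and dividing by the step gave fragments. A value of 500 was 3.67 to 5.88 fragments. PCR copies are not independent molecules, so intervals cover counting error only. The authors' subsample of 50% of each library served only as an alternative depth. A further 25 value columns were not used.

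Differences were taken on log2(value + 100), which understates changes of low genes. The members and gene lists were chosen with earlier results of these data known. Counts by size carry no test. Genes of related lists were tested with limma 3.58.1 (eBayes with trend, treatment as a block, 3 pairs, 2 residual degrees of freedom, mean above 500, two-sided, adjusted p under 0.05) in R 4.3.3, with edgeR 4.0.16 and DESeq2 1.42.0 on recovered fragments as alternatives. Nothing states that the treatments came from independent cultures, so p-values refer to these libraries only. The eBayes step draws each gene's variance toward that of genes at a similar level. SEs and p-values of limma therefore do not measure the spread of a gene's own 3 ratios alone. The limma script was tested on simulated data. Named genes were the 10 members, at most 3 genes per list and direction that passed the size rule with both drugs or the limma test, by mean absolute log2 difference, and the 5 genes (mean above 5000) nearest the members' median centred profile. A gene that this rule takes is not reported here. Exon lengths came from GENCODE 44 and promoters from RefSeq (GRCh38.p14).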

Additional observations from a re-analysis of the deposited data

Results flagged for a closer look

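For 4 genes the TS-RIP ratio lay on opposite sides of 0 in a drug and in NT, with each counting interval clear of 0. Each group is a single pair of libraries, so the difference was not tested. For DNMT1 the log2 ratio with 5FdUR minus that in NT was 0.828, and with RTX minus NT 0.832. For NASP the same differences were 0.944 with 5FdUR and 0.817 with RTX. For CHAF1B they were 0.49 with 5FdUR and 0.474 with RTX. For ASF1A the difference was 1.24 with RTX, on 51 to 100 fragments per library. With each library scaled to the same total, the ratios of CHAF1B were 0.10 in 5FdUR and 0.05 in RTX, and that of ASF1A in RTX 0.48. Those of DNMT1 were then 0.24 and 0.22, and those of NASP 0.29 and 0.13. Intervals were not recomputed for that scaling, so whether CHAF1B and ASF1A stay clear of 0 under it was not tested. All 7 differences share the NT pair of libraries. The share of all genes with this pattern was not counted. It was not particular to these genes. The median ratio of the DNA replication machinery was 0.18 in 5FdUR, 0.10 in RTX and -0.23 in NT. Medians of G2/M genes, other histone chaperones and heterochromatin genes also lay above 0 with both drugs and below it in NT. Those of the remaining related lists did not.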

How the results depend on the processing

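Of 90 values of the 10 genes, 0 changed sign at a pseudocount of 10 or 1000, 1 did in the 50% subsamples (ASF1A, ratio in 5FdUR, -0.03) and 5 did with each library scaled to the same total, all of them under 0.10 in size before. Counts of the 10 genes depended on the threshold. At 1.5-fold, 5FdUR over NT gave 1 higher and 4 lower, RTX over NT 2 higher and 1 lower, and 5FdUR over RTX 4 lower. At a log2 threshold of 0.32, the TS-RIP ratio gave 2 higher with 5FdUR, 2 higher and 1 lower with RTX and 4 lower in NT. ASF1A, with the fewest fragments, lost its higher ratio with RTX (0 higher) at a pseudocount of 1000, with equal totals and in the 50% subsamples, and the subsamples gave 3 lower, with DNMT3B as the third, for 5FdUR over NT and 3 lower, with NASP as the third, for the ratio in NT. The ratio in NT had 1 lower at a pseudocount of 1000 and with equal totals. No filter on low values changed a count of the 10 genes. For the related lists under limma, a pseudocount of 10 gave 0 higher, equal totals 0 higher and 4 lower, no filter 2 and 34, eBayes without trend 0 and 0 (33 at an unadjusted p under 0.05) and no treatment block 0 and 0 (2 at an unadjusted p under 0.05). With 1 pair left out, 0 to 29 were higher and 4 to 44 lower, the highest counts without the NT pair and the lowest without the RTX pair. DESeq2 gave 7 lower. The cause of these moves was not tested. Depth limits ASF1A and DNMT3B most, with 51 and 141 fragments in their lowest libraries. No paired analysis by replicate number was possible because the labels give each group 1 sample.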

Other observations

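Of 26 other histone chaperones 6 were lower with 5FdUR than in NT and 0 higher, where 7.75% of all genes were lower and 10.0% higher. HIRA, UBN1, UBN2 and CABIN1, named after their values were seen, were 4 of the 6, and all belong to the HIRA complex, which deposits H3.3 outside replication. HIRA differed by -1.91 in TS-RIP and -1.20 in RIPctr with 5FdUR and by -1.19 and -0.77 with RTX. UBN1 differed by -1.48 and -1.03 with 5FdUR and by -0.91 and -0.73 with RTX. UBN2 differed by -1.18 and -1.09 with 5FdUR and by -1.14 and -0.62 with RTX. CABIN1 differed by -1.45 and -1.42 with 5FdUR and by -0.92 and -0.90 with RTX. DAXX and ATRX, which deposit H3.3 at other sites, did not pass, with -0.10 and -0.12 for DAXX and -0.28 and -1.22 for ATRX in TS-RIP and RIPctr with 5FdUR. These are counts by size from 1 library per treatment and fraction, with no test. With RTX 0 of the 26 were lower and 2 higher (MMS22L and OIP5, also named after their values were seen), where 3.61% of all genes were lower and 5.33% higher.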
